A study of Mus musculus with 6 samples.

Results

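The 9 genes described here are Dmbt1, Sprr1a, Cdcp3, Mfsd2a, Ido1, Cxcl15, Mtmr7, Pcp4 and Slc5a5. They were selected on their array levels, by the large difference between stromal Mmp14 knockout and wild-type mammary glands. They are 9 of 22180 genes measured, each read by 1 probe set, and because that difference chose them it is given as a description without a test. In the knockout gland they stood at 2.69% to 9.03% of their wild-type level. Cdcp3, Sprr1a, Ido1 and Dmbt1 reached, in at least 1 knockout array, the range of receptor genes that the gland is not known to use, whereas Mfsd2a, Cxcl15, Mtmr7, Pcp4 and Slc5a5 stayed above it in all 3. Cdcp3 was within that range in all 3 knockout arrays, Sprr1a in 2, and Dmbt1 and Ido1 in 1 each. A level at background therefore holds throughout for Cdcp3, and only in those arrays for Sprr1a, Dmbt1 and Ido1.

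Total RNA came from whole inguinal mammary glands of mice aged 4 weeks on the C57BL/6J background. The 3 stromal knockout glands (Dermo1Cre/Mt1-mmp(fl/fl)) carried floxed Mt1-mmp, the older name of Mmp14, together with Dermo1Cre, a Cre recombinase driven from the mesenchymal gene Dermo1, now Twist2. The 3 wild-type glands (Mt1-mmp(+/+)), from littermates, carried intact Mt1-mmp, and the labels name no Cre for them, so an effect of Cre itself cannot be told apart from the loss of Mmp14. Each gland gave 1 array, and levels are log2 signals as the authors deposited them.

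At this age the mammary ducts, a bilayer of luminal and basal epithelial cells, grow out into a fat pad of adipocytes, fibroblasts, vessels and immune cells. MMP14, anchored in the cell membrane, cuts collagen and activates other proteases, and stromal cells are a main source of it in the gland. Dmbt1 and Cxcl15 encode secreted proteins of mucosal surfaces, Sprr1a a building block of the envelope of squamous cells, Ido1 and Mtmr7 enzymes, Mfsd2a and Slc5a5 membrane transporters, Pcp4 a calmodulin-binding protein and Cdcp3 a protein with CUB domains. Slc5a5, the sodium iodide symporter, is known in the breast for loading iodide into milk.

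Mmp14 was at 8.57, 8.55 and 8.75 in the knockout arrays, against 11.18, 10.55 and 10.90 in the wild-type arrays, a difference of -2.25 ± 0.17 log2 units (SE; limma adjusted p = 0.000454; exact permutation p = 0.1, two-sided, the smallest that 3 against 3 arrays allow). The groups did not overlap, which goes with the labels, and 21.0% of the wild-type Mmp14 level was left in the whole gland. Of the 22180 genes, 12.2% passed the test at a limma adjusted p under 0.05, 7.2% lower and 5.05% higher in the knockout (1596 and 1121 genes, and 1333 and 1768 with each array centred on its median). Of calls there were 2717 in all, 1497 when knockout 2 was left out and 1800 when knockout 1 was, 1490 when wild type 1 was left out and 1671 when wild type 3 was. Array medians over all probe sets lay between 3.77 and 3.78 in the knockout and between 3.85 and 3.89 in wild type. Across genes, arrays correlated at 0.990 to 0.992 within a group and at 0.975 to 0.983 between groups; genes are not independent replicates. Wild type 1 stood apart in muscle RNA, with a mean over 25 skeletal muscle genes of 5.17, against 3.63 and 3.29 in the other wild-type arrays and 3.21 to 3.32 in the knockout. All 9 genes had the 3 knockout arrays below the 3 wild-type arrays, as had 15.4% of all genes, and the choice of the 9 fixed that count.

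Background was read from 1425 olfactory, vomeronasal and taste receptor genes, which a mammary gland is not known to use. Their median level was 1.50 to 1.59 in the knockout arrays and 1.39 to 1.52 in the wild-type arrays, and their 95th percentile 2.99 to 3.23 in the knockout and 3.03 to 3.22 in wild type. A reading under that 95th percentile is called within the receptor range. In whole tissue, fewer cells of a type and less RNA per cell cannot be told apart, and this holds for every level that follows.

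Dmbt1, which had the largest fall of all 22180 genes, encodes a scavenger receptor-like glycoprotein of mucosal epithelia that binds bacteria. It was at 3.51, 2.67 and 4.25 in the knockout arrays, against 8.56, 8.66 and 8.86 in the wild-type arrays. Its knockout mean of 3.48 ± 0.79 (SD, n = 3) left 2.69% of the wild-type mean of 8.69 ± 0.15, a 37.1-fold lower level. The knockout arrays spread over 1.59 log2 units and the wild-type arrays over 0.30, and the groups lay 4.30 apart at their nearest. Cdcp3, named for its CUB domains, was at 2.77, 2.47 and 2.87 in the knockout arrays, against 7.20, 7.50 and 7.54 in the wild-type arrays. Every knockout array of Cdcp3 was within the receptor range, so its fall by 4.71 log2 units ends at background and the level was at least 19.6-fold lower. Cxcl15, a CXC chemokine that draws neutrophils and is best known from lung epithelium, was at 4.11, 3.80 and 4.55 in the knockout arrays, against 7.70, 7.96 and 7.99 in the wild-type arrays. This left 7.54%, and the groups lay 3.15 apart.

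Sprr1a, a small proline-rich protein that transglutaminases crosslink into the cornified envelope, was the least even of the 9. It was at 1.81, 2.67 and 5.14 in the knockout arrays, against 8.03, 8.21 and 7.64 in the wild-type arrays. Knockout 1 and knockout 2 were within the receptor range while knockout 3 kept a clear signal, so the knockout SD of 1.73 exceeded the wild-type SD of 0.29. The difference was -4.75 over all arrays, -5.72 without knockout 3 and -4.06 without knockout 1, and its size therefore rests on single arrays. Even knockout 3 lay 2.50 below the lowest wild-type array. Sprr1a and Dmbt1 shared the identical reading in knockout 2, a value that 30 probe sets of that array held, so Sprr1a and Dmbt1 cannot be ordered in that array.

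Among the enzymes, Ido1, which opens tryptophan breakdown to kynurenine and is induced by interferon gamma, was at 4.00, 2.67 and 3.23 in the knockout arrays, against 6.83, 7.06 and 7.74 in the wild-type arrays. Its wild-type arrays spread over 0.91 log2 units, the widest of the 9 genes, and 6.65% of the wild-type level was left. Mtmr7, a myotubularin phosphatase that removes phosphate from inositol lipids, was at 4.03, 3.73 and 4.21 in the knockout arrays, against 7.67, 7.85 and 7.58 in the wild-type arrays. This left 7.63%, with both groups tight (SD 0.24 and 0.14).

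Of the transporters, Mfsd2a, which carries lysophosphatidylcholine with its fatty acid across membranes, was at 4.53, 4.55 and 5.38 in the knockout arrays, against 9.02, 8.56 and 8.93 in the wild-type arrays. This left 6.18%, and knockout 3 was again the highest knockout array. Slc5a5 was at 4.47, 4.61 and 4.67 in the knockout arrays, against 8.07, 7.65 and 8.44 in the wild-type arrays, leaving 9.03%. Pcp4, a small IQ motif protein that speeds calcium exchange on calmodulin and is abundant in Purkinje cells, was at 4.88, 4.76 and 4.82 in the knockout arrays, against 8.60, 8.22 and 8.17 in the wild-type arrays, leaving 8.78%. Slc5a5 and Pcp4 were the 2 genes whose knockout arrays spread less than their wild-type arrays, and neither had an array within the receptor range.

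**Figure D1:**
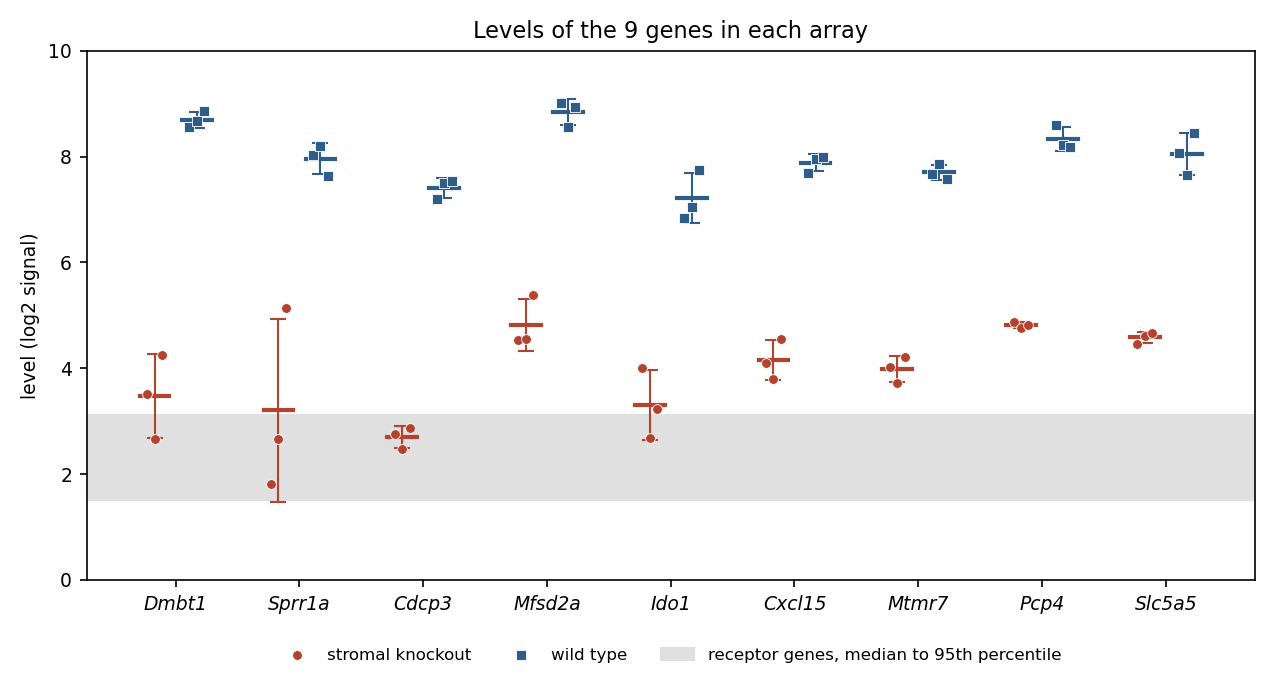
Level (log2 signal) of the 9 genes in each of the 3 stromal knockout arrays (circles, left of each pair) and the 3 wild-type arrays (squares, right), with mean and SD; the grey band runs from the median to the 95th percentile of 1425 receptor genes, averaged over arrays. The wild-type arrays of every gene lie far above the band. In the knockout Cdcp3 lies inside it, and Sprr1a runs from inside it (1.81) to above it (5.14).

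In wild type the means of the 9 genes lay 4.10 (Ido1) to 5.72 (Mfsd2a) log2 units above the receptor 95th percentile. In the knockout, Pcp4 and Mfsd2a remained 1.71 and 1.70 above it, Slc5a5 1.47, Cxcl15 1.04 and Mtmr7 0.87, and all 3 knockout arrays of these 5 genes were above it. Dmbt1, Ido1 and Sprr1a averaged 0.36, 0.18 and 0.09 above it, with 1, 1 and 2 knockout arrays below. Cdcp3 averaged 0.41 below it, with all 3 arrays below. Measured from the receptor median, the knockout means of the 9 genes lay 1.16 (Cdcp3) to 3.28 (Pcp4) log2 units above. Signals of different probe sets are not on 1 scale, so these distances and the ranks that follow are approximate.

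In wild type all 9 genes belonged to the brighter part of the array. Ranked by wild-type mean among 22180 genes, Mfsd2a was number 1416 and Dmbt1 number 1612, in the top 6.38% and 7.27%, followed by Pcp4 (2223), Slc5a5 (2791), Sprr1a (3007), Cxcl15 (3183), Mtmr7 (3588), Cdcp3 (4293) and Ido1 (4871). In the knockout they ranked between 10458 (Pcp4) and 14767 (Cdcp3), near the middle of all genes.

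**Figure D2:**
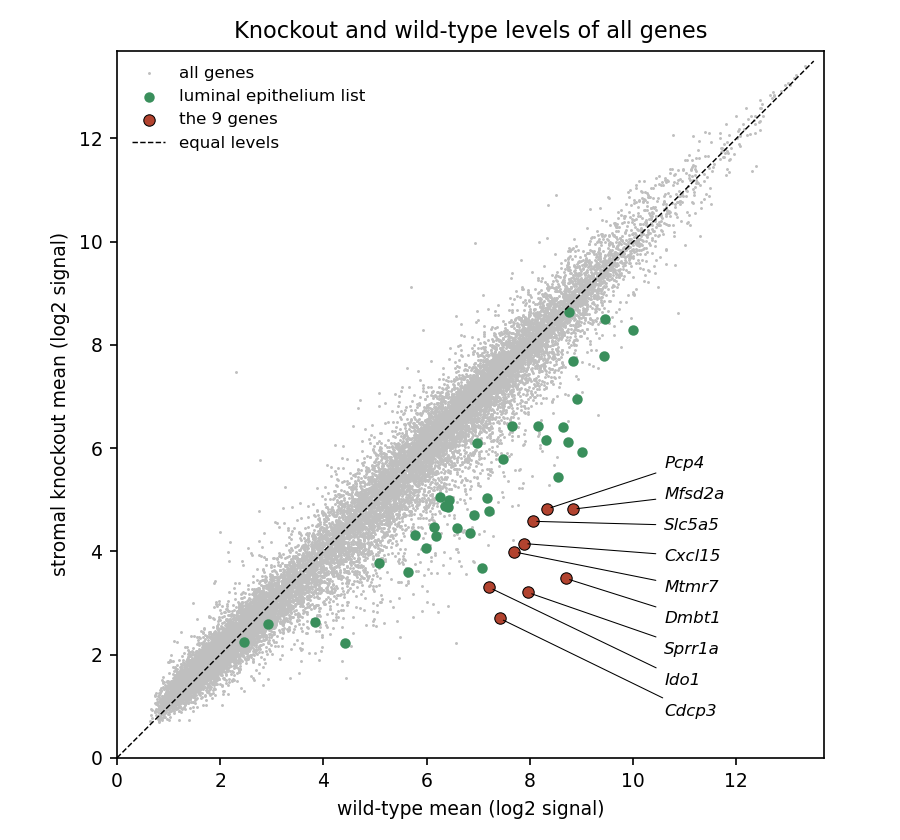
Stromal knockout mean against wild-type mean (log2 signal, n = 3 arrays each) for 22180 genes in grey, the 35 measured luminal epithelium genes in green and the 9 genes in red; the dashed line marks equal levels. The 9 genes lie at wild-type means of 7.21 to 8.83 and knockout means of 2.70 to 4.82, further below the line than the luminal genes.

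By size of fall the 9 genes hold ranks 1, 2, 3, 5, 6, 7, 8, 10 and 12. The 3 genes between them that were not taken were Gm4847 (a predicted gene, -4.35), Vmn1r39 (a vomeronasal receptor gene and 1 of the 1425, -3.52) and Stra6 (the retinol uptake receptor, -3.47). Just inside stood Slc5a5 at -3.47, and just outside Lrrc15, a leucine-rich repeat membrane protein, also at -3.47, the progesterone receptor gene Pgr at -3.41 and Clca1 at -3.40. Gm4847, Vmn1r39 and Clca1 were within the receptor range in all knockout arrays, so their levels were at least 10.9-fold, 5.10-fold and 8.59-fold lower.

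Spread in the knockout followed single arrays. Knockout 3 was the highest knockout array for 7 of the 9 genes, knockout 1 for Ido1 and Pcp4, and the lowest was knockout 2 for 6 genes and knockout 1 for 3. Knockout 3 also had the highest mean over 35 luminal epithelium genes, 5.37 against 5.16 and 5.20 in knockout 1 and knockout 2. The part of epithelial content in that order was not tested. For 7 of the 9 genes the SD was larger in the knockout than in wild type. Their median SD was 0.377 in the knockout and 0.230 in wild type, beside 0.164 and 0.165 over all genes. The share of all genes with a larger SD in the knockout was not computed.

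Promoter sequences from RefSeq (GRCm38.p6), 250 bases before and 50 after the annotated start, were found for 6 of the 9 genes, and Dmbt1, Ido1 and Mtmr7 had no entry in the table used. A TATA box (TATAAA, either strand) was present in the promoters of Sprr1a, Cdcp3 and Cxcl15, and in 13.6% of 32851 promoters in the table. Between 40 and 20 bases before the start on the sense strand it stood in Cxcl15 and Cdcp3, and in 1.99% of all promoters, while that of Sprr1a began 43 bases before the start. These are shown with the TATA box in capitals, 5′ to 3′ on the gene's strand, beside the G and C rich promoter of Slc5a5 (67% G and C), which has none.
Cdcp3, chr7:131174152-131174451, plus strand: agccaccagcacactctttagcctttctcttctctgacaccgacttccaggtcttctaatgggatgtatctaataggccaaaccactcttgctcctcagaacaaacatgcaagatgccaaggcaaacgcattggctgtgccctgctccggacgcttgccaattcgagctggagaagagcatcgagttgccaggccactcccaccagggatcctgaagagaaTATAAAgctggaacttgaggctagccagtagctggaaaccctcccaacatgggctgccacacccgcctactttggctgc
Cxcl15, chr5:90794284-90794583, plus strand: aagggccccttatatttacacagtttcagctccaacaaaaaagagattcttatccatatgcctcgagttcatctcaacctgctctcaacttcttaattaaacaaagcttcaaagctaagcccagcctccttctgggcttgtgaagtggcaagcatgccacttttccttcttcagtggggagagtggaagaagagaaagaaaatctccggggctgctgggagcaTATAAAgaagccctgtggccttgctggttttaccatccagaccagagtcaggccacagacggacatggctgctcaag
Sprr1a, chr3:92485832-92486131, minus strand: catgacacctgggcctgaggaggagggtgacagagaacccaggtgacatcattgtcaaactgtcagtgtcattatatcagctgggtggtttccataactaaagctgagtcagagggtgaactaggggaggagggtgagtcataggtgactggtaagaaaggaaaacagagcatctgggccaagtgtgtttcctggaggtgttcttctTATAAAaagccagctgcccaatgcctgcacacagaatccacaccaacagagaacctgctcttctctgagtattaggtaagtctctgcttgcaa
Slc5a5, chr8:70892708-70893007, minus strand: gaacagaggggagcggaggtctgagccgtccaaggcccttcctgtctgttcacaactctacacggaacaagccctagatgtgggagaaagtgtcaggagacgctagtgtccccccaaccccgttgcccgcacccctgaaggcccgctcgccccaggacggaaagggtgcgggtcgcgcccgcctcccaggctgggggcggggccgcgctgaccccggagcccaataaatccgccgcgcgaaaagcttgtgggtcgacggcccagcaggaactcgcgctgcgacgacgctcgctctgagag

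The CCAAT box (CCAAT, both strands) was in 5 of the 6 promoters, all but Cxcl15, and in 37.4% of all promoters. The letters TGTTCT (both strands), which form one side of the element that progesterone and glucocorticoid receptors recognise, were in Sprr1a and Cdcp3 and in 19% of all promoters. The STAT site (TTCNNNGAA, both strands), and the interferon response element and the oestrogen receptor element, searched on both strands, matched 0 of the 6 promoters, and 8.3%, 3.44% and 0.07% of all promoters. Mfsd2a (60.3% G and C), Pcp4 (48.7%) and Slc5a5 (67%) had a CCAAT match as their sole match. A match is a description of the letters, and a missing one says only that the letters are not in this window.

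Epithelial genes fell in the same arrays. Of 35 measured luminal epithelium genes 31 fell and 0 rose, with a median difference of -1.72 beside a median of 0.03 over all genes and 7.2% of all genes called lower. The mean level of the list was 5.16 to 5.37 in the knockout arrays and 6.88 to 7.05 in the wild-type arrays, and 4 of the 35 genes had a knockout mean under the receptor 95th percentile. In the basal and myoepithelial list 13 of 22 genes were lower and 0 higher (median -0.84), with array means of at most 5.28 in the knockout and at least 6.07 in wild type. The luminal keratin genes Krt8 and Krt18 fell by 3.08 ± 0.24 and 2.62 ± 0.13 (SE; limma adjusted p = 0.000476 and 0.000126), and Epcam, an adhesion molecule of epithelial cells, by 1.96 ± 0.12 (limma adjusted p = 0.000194). The part of these shifts in the fall of the 9 genes was not tested.

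The 9 genes were below these epithelial genes in difference, which their choice by size of fall entails. Among the 35 luminal genes, 0 fell as much as Slc5a5, and the nearest was Pgr. When the mean of Krt8, Krt18 and Epcam, which itself differed by -2.55, was subtracted within each array, the differences of the 9 genes became -2.66 for Dmbt1, -2.20 for Sprr1a, -2.16 for Cdcp3, -1.46 for Mfsd2a, -1.36 for Ido1, -1.18 for Cxcl15, -1.16 for Mtmr7, -0.96 for Pcp4 and -0.92 for Slc5a5. Each of the 9 was chosen for a fall larger than 2.55, so the choice fixed the direction on this scale and favoured separate groups. All 3 knockout arrays stayed below all 3 wild-type arrays for each gene. This was narrow for Ido1, where knockout 1 at -2.21 lay beside wild type 1 at -2.04. It was narrow for Sprr1a too, where knockout 3 at -1.47 lay beside wild type 3 at -1.37. The share of all genes with separate groups on this scale was not computed, so nothing is read from that separation. This scale was chosen after the values had been seen.

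**Figure D3:**
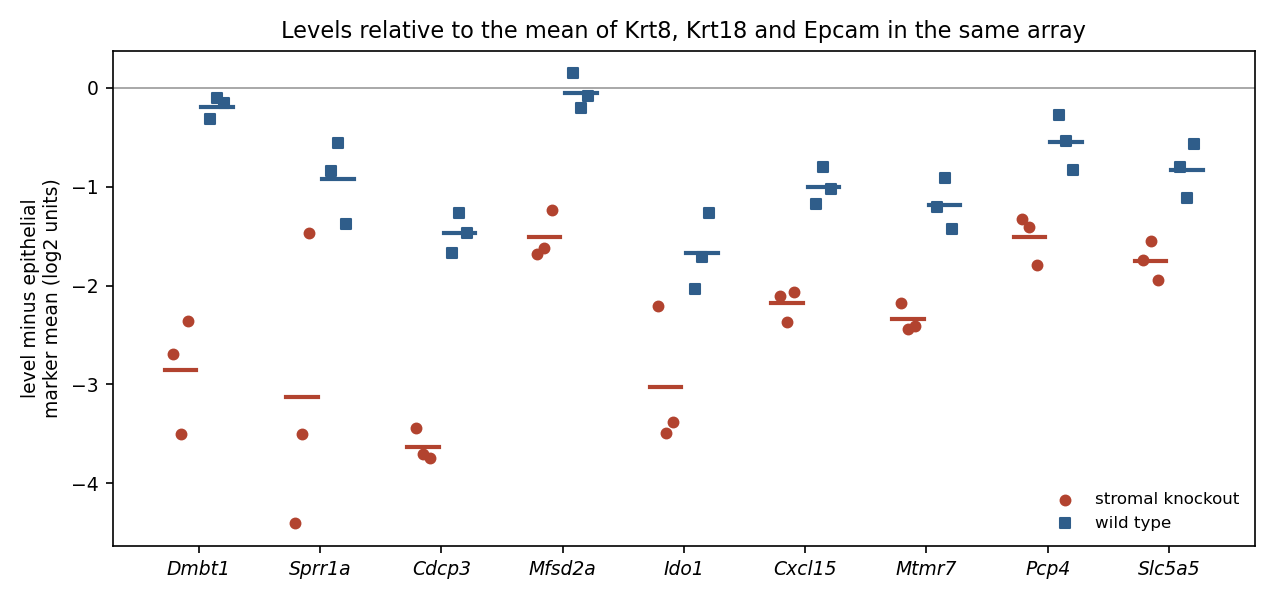
Level of each of the 9 genes minus the mean of Krt8, Krt18 and Epcam in the same array (log2 units), stromal knockout as circles on the left of each pair and wild type as squares on the right, with bars at the means of 3 arrays. The knockout points lie below the wild-type points for each gene, by 0.92 (Slc5a5) to 2.66 (Dmbt1) on average, a direction that the choice of the 9 fixed. Heights of different genes are not comparable.

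Many markers of other epithelia that use some of the 9 genes were within the receptor range, where a change could hardly be seen. Of 19 genes of skin keratinocytes, which make SPRR proteins, 0 fell and Cdsn rose (+1.09, limma adjusted p = 0.0196, a call that 4 of the 6 fits without 1 array did not give, with p up to 0.0699). The list averaged 3.06 to 3.19 in the knockout arrays and 3.06 to 3.10 in the wild-type arrays, and 10 of the 19 genes lay under the receptor 95th percentile in both groups. The defining keratins Krt1 and Krt10 were 3.37 and 4.24 in the knockout and 3.10 and 4.14 in wild type, with limma adjusted p-values of 0.585 and 0.705. Of 16 genes of salivary and lacrimal glands, where Dmbt1 and Slc5a5 are also made, 11 lay under that percentile in both groups, and the water channel gene Aqp5 fell (-2.21, limma adjusted p = 0.00041).

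Lists for secretory cells and for other cell types of the gland were read in the same way. Of 29 milk and ductal secretory genes, 11 fell and 0 rose (median -0.31), with array means of 4.96 to 5.08 in the knockout and 5.50 to 5.61 in wild type. Of 19 white adipocyte genes 9 rose (median 0.43), with array means of 10.81 to 11.00 in the knockout and 10.38 to 10.39 in wild type, and 4 rose without knockout 2. Of 17 thermogenic adipocyte genes 9 rose (median 1.50), with array means of 7.24 to 7.66 in the knockout and 5.68 to 6.63 in wild type. Of 17 lymphocyte genes 1 fell and 0 rose (median -0.19), with array means of 3.23 to 3.48 in the knockout and 3.26 to 3.62 in wild type. Their part in the fall of the 9 genes was not tested.

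Of 9 close relatives of the 9 genes, Slc5a8 fell and the other 8 did not pass the test. Cuzd1, Sprr1b, Ido2 and Cxcl5 averaged 1.79, 2.49, 2.46 and 1.61 in the knockout and 1.60, 2.36, 2.54 and 1.76 in wild type, within the receptor range in both groups. Mtmr6 and Pcp4l1 were well above it and differed by -0.11 ± 0.11 and +0.10 ± 0.14 (SE; limma adjusted p = 0.586 and 0.703), and Mfsd2b, at 3.24 in the knockout and 3.00 in wild type, was at its edge (limma adjusted p = 0.506). In the SLC5 family, Slc5a6, a sodium-dependent vitamin transporter gene, differed by +0.47 ± 0.13 (limma adjusted p = 0.0586).

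Over the 8 lists of families and pathways to which the 9 genes belong, which leave out the 9 genes themselves, 30 of 212 measured genes fell (14.2%, beside 7.2% of all genes) and 11 rose (5.19%, beside 5.05%). The median difference was -0.02, and 0 of the 212 fell as much as Slc5a5. Many of the 212 lay under the receptor 95th percentile in both groups, where a fall could hardly be seen. They were 12 of 32 in the scavenger receptor and CUB list, 24 of 36 in the cornified envelope list and 7 of 26 in the kynurenine list. In the CXC and SLC5 lists they were 6 of 21 and 17 of 33. Such genes draw the median towards no change. The rises numbered 21 with median centring, 18 with an intensity trend, 17 without the dimmest genes and 7 with the replicate block. The count of falls was 19 without knockout 2, and that of rises 3 without knockout 2 or wild type 1, 6 without knockout 1 and 5 without wild type 2 or wild type 3.

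In the families of Dmbt1 and Cdcp3, proteins with scavenger receptor or CUB domains, 7 of 32 genes fell and 1 rose (median -0.12). Cdcp1, a CUB domain membrane protein of epithelia, was at 3.75, 4.61 and 4.59 in the knockout arrays, against 6.75, 6.52 and 6.34 in the wild-type arrays, a difference of -2.22 ± 0.24 (SE; limma adjusted p = 0.00175). Scube1 fell by 2.18 ± 0.15 (limma adjusted p = 0.000313), and Ssc5d by 1.25 ± 0.28, a call absent when knockout 1, knockout 2, wild type 1 or wild type 3 was left out (limma adjusted p up to 0.0972). Scube2 fell by 1.16, a call kept only when knockout 3 was left out (up to 0.115). Among procollagen and collagen enzymes, Bmp1 and Loxl3 fell by 0.91 and 1.01 and passed without each array in turn, and the protease gene Prss12 fell by 0.70, not passing without wild type 1, wild type 3 or knockout 2 (up to 0.0567). The rise of Tll1, a procollagen-cleaving protease (+0.53), was lost without any 1 array (limma adjusted p 0.0594 to 0.121). The list had 4 falls without wild type 1 or knockout 2.

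In the cornified envelope list of Sprr1a 4 of 36 genes fell and 0 rose (median 0.05), and 24 lay under the receptor 95th percentile in both groups. A probe set shared by Sprr2a1, Sprr2a2, Sprr2a3 and Sprr2b carries several symbols and is not counted in this list. It averaged 4.31 in the knockout and 7.27 in wild type (-2.96) and was not tested. Tgm1, the transglutaminase that crosslinks envelope proteins, was at 4.18, 3.83 and 3.88 in the knockout arrays, against 5.25, 5.21 and 5.52 in the wild-type arrays (-1.36 ± 0.15, SE; limma adjusted p = 0.00166). Tgm3 fell by 0.98, lost without wild type 2, knockout 1 or knockout 2 (limma adjusted p up to 0.0559), and Krt17, which also marks basal cells, by 1.40, absent when knockout 1, knockout 2, wild type 2 or wild type 3 was left out (up to 0.0735). The stress keratin gene Krt6a, with overlapping groups (1.17 to 3.05 in the knockout arrays and 3.01 to 5.19 in the wild-type arrays), fell into the receptor range, at least 2.36-fold lower (limma adjusted p = 0.0474), and this call was absent when knockout 2, knockout 3, wild type 1 or wild type 3 was left out (up to 0.151). Krt6a in wild type 2, at 3.01, was itself within the receptor range, so its bound rests on wild type 1 and wild type 3 (5.19 and 4.87). The list had 2 falls without wild type 3 or knockout 1 and 1 without knockout 2.

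For Mfsd2a, 5 of 28 genes of the MFSD family and of lysophospholipid handling fell and 1 rose (median -0.02). The reacylating enzymes Lpcat4, Lpcat2 and Lpcat1 fell by 1.08, 1.07 and 0.66, and the desaturase Fads2 and the transporter Mfsd6 by 0.72 and 0.71. Of these, Lpcat2 and Mfsd6 kept their call without each array in turn (limma adjusted p 0.00932 to 0.0231 and 0.0226 to 0.0463). Lpcat4 lost it without any wild-type array or knockout 1, and Lpcat1 and Fads2 without wild type 1, wild type 3 or knockout 2, Fads2 also without knockout 1 (limma adjusted p up to 0.081). Mfsd4b1 rose by 0.73, not passing when knockout 1, knockout 3, wild type 1 or wild type 2 was left out (up to 0.088). Leaving out knockout 2 gave 3 falls in the list, and leaving out wild type 1 or wild type 3 gave 2.

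In the kynurenine list of Ido1 3 of 26 genes fell and 4 rose (median -0.02). Slc7a5, a carrier that imports tryptophan, fell by 1.01 ± 0.16 and the interferon gamma receptor chain Ifngr2 by 0.92 ± 0.13 (SE; limma adjusted p = 0.00654 and 0.00467), while the other chain, Ifngr1, rose by 0.84 ± 0.16 (0.0128, and 0.0519 without knockout 2). Kyat3, an aminotransferase of kynurenine, rose by 1.11 ± 0.14 (limma adjusted p = 0.00316). Tdo2, which catalyses the same step as Ido1, was at 3.03, 3.06 and 2.19 in the knockout arrays, against 1.78, 1.91 and 1.66 in the wild-type arrays (limma adjusted p = 0.0342), within the receptor range in every array but knockout 2, so that no size is given. The calls of Tdo2 and of Cyp1b1, a target of the kynurenine receptor (+0.77), were lost without any 1 array other than knockout 3 (limma adjusted p up to 0.106 and 0.145), and that of Irf8 (-0.63) without any 1 array other than knockout 1 (up to 0.131). The rises numbered 2 without any 1 wild-type array and 1 without knockout 2, and the falls 2 without any 1 wild-type array or knockout 2.

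Among 21 CXC chemokines and receptors, the family of Cxcl15, 4 fell and 1 rose (median -0.26). Cxcl14 was at 7.03, 7.09 and 7.04 in the knockout arrays, against 8.84, 8.53 and 9.28 in the wild-type arrays (-1.83 ± 0.19, SE; limma adjusted p = 0.0013). Cxcl16 and Cxcl17 fell by 1.48 and 1.06 (limma adjusted p = 0.00294 and 0.00943). The decoy receptor Ackr3 fell by 0.65 and the B cell chemokine Cxcl13 rose by 1.47, both lost without any 1 array other than knockout 3 (limma adjusted p up to 0.0815 and 0.119).

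Of 20 myotubularins and partners of Mtmr7, Mtmr11 fell by 0.86 ± 0.14 and Mtmr14 rose by 1.06 ± 0.16 (SE; limma adjusted p = 0.00865 and 0.00605; list median 0.12). Of 16 calmodulins and calmodulin-binding proteins beside Pcp4, Camk4 fell, at least 2.41-fold (limma adjusted p = 0.00609), and the growth cone protein gene Gap43 rose by 0.71 (0.019, lost without wild type 1, wild type 3 or knockout 2, up to 0.0676; list median 0.04).

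In the SLC5 and iodide list of Slc5a5 5 of 33 genes fell and 2 rose (median 0.05), and 17 lay under the receptor 95th percentile in both groups. Oxtr, the oxytocin receptor of myoepithelial cells, fell by 2.43 ± 0.33 (SE; limma adjusted p = 0.00387) and stands in the basal list too. Slc5a8, a sodium-coupled monocarboxylate transporter gene, was at 3.63, 3.62 and 4.21 in the knockout arrays, against 6.34, 5.79 and 6.12 in the wild-type arrays (-2.26 ± 0.21; limma adjusted p = 0.000862), and the choline transporter gene Slc5a7 fell by 1.52 ± 0.21 (0.00417). The chloride channel gene Ano1 fell by 0.78 ± 0.11 (limma adjusted p = 0.00509). The potassium channel subunit gene Kcne2 was within the receptor range in all knockout arrays. It was at 3.10, 4.04 and 2.99 in the wild-type arrays, and wild type 3 was within that range too. The mean was at least 1.20-fold lower, a bound resting mostly on wild type 2. Its call (limma adjusted p = 0.0207) was lost without knockout 1 or knockout 2 (up to 0.0712). The thyroid hormone receptor gene Thrb rose by 0.64 (limma adjusted p = 0.0154, lost without wild type 1, wild type 3 or knockout 2) and Tshr by 0.49 (0.042, lost without any 1 array, up to 0.129).

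**Figure D4:**
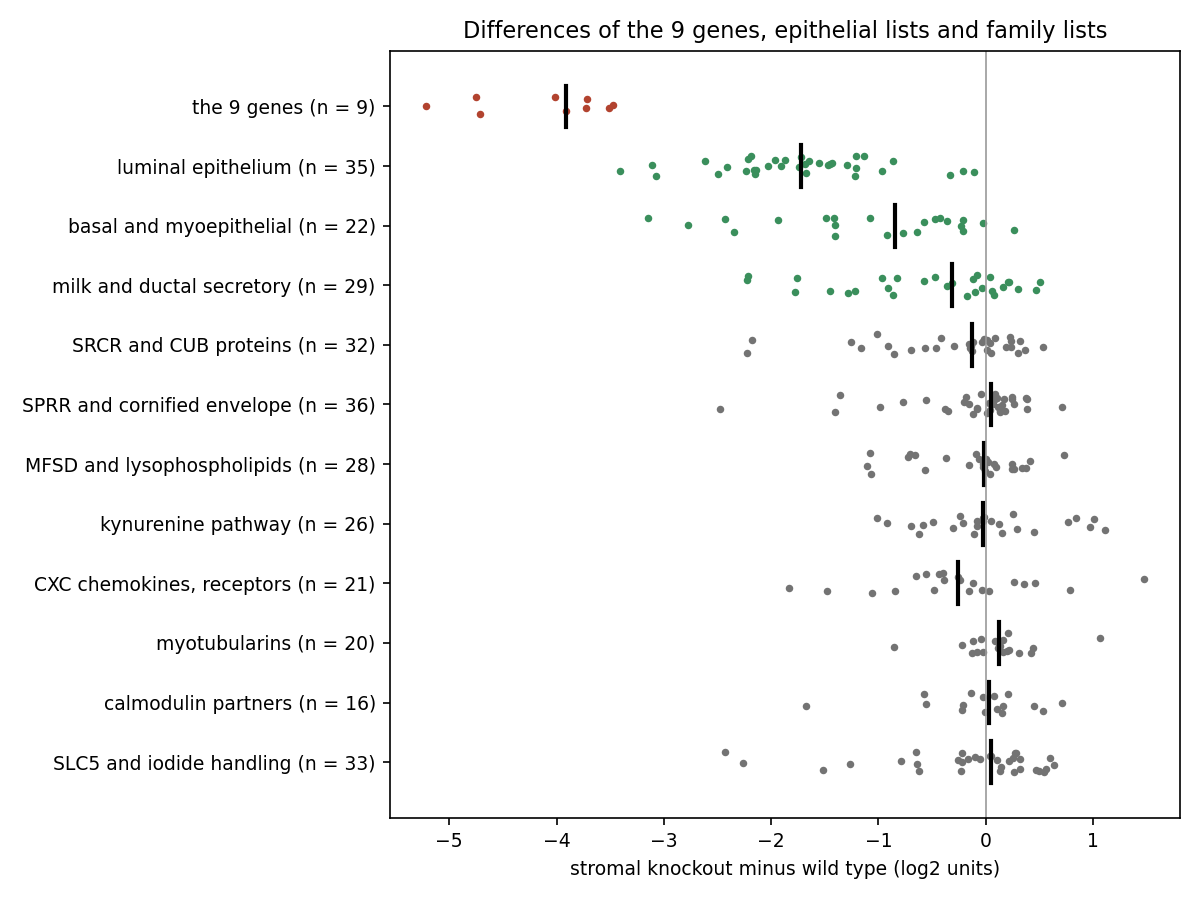
Difference, stromal knockout minus wild type (log2 units), of the 9 genes (red), of 3 epithelial lists (green) and of the 8 family lists without the 9 genes (grey), 1 point per gene, with a bar at each list's median. The 9 genes lie between -5.21 and -3.47, the luminal median is -1.72, and the medians of the family lists lie between -0.26 and 0.12.

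In the gene order of RefSeq, Dmbt1 and Cdcp3 lie close together with 2 measured genes between them, 4933402N03Rik and 1700029B22Rik, which averaged 2.25 and 1.54 in the knockout and 2.11 and 1.50 in wild type, under the receptor 95th percentile. Of the 18 measured genes next to the 9, 1 fell and 0 rose, beside 7.2% lower and 5.05% higher among all genes. That gene was Htra1, a secreted serine protease beside Dmbt1 (-0.97, limma adjusted p = 0.0279), and its call was absent when knockout 1, knockout 2, wild type 1 or wild type 3 was left out (up to 0.0999). Cap1 and Mycl, on either side of Mfsd2a, differed by -0.40 and +0.41 (limma adjusted p = 0.055 and 0.167), Mycl passing without knockout 3 (0.0355), and Ccdc124 beside Slc5a5 by +0.25 (0.37). The neighbours Sprr3, Sprr4, Cuzd1, Ido2, Adam18, Cxcl3, Adam24, Itgb2l and Dscam were within the receptor range in every array. A fall could hardly be seen in them, nor in the 2 genes between Dmbt1 and Cdcp3.

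Likeness of pattern was measured as the root mean square distance over the 6 arrays between profiles set relative to each gene's wild-type mean. This distance mostly follows the size of the fall by which the 9 were chosen, so nothing is read from how many of the nearest genes are among the 9. The closest pair was Cxcl15 and Mtmr7, 0.15 log2 units apart. Outside the 9, Gm4847 was nearest to Cdcp3 (0.34) and second to Dmbt1 (0.78), Stra6 was second to Cxcl15 (0.25), and Krt14, a basal keratin gene, and Pgr were nearest to Slc5a5 (0.24 and 0.26). Gm4847, Cdcp3 and Krt14 were within the receptor range in all knockout arrays, so distances to them rest in part on background readings. The gene nearest to Sprr1a was Dmbt1, at 0.86.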

How the data were processed

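Total RNA (400 ng) of whole glands was labelled and hybridised to Affymetrix whole-transcript arrays, per the labels' protocols. The deposited log2 values, 1 per probe set and array, came from the authors' use of RMA, which subtracts background, equalises array distributions and combines probes, per the submitters' processing notes, which also name limma. The sources used here do not give versions, chip definition or probe filters, and the log base was taken as 2 from RMA and the range of values.

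Of 41345 probe sets, 23521 carry 1 symbol in the platform annotation, 1814 several and 16010 none. For each of 22180 symbols the probe set brightest on average was kept, and a lookup by Entrez identifier altered 0 symbols. Stromal knockout was compared with wild type (3 arrays each, 4 residual degrees of freedom) with limma 3.58.1 (lmFit, then eBayes; R 4.3.3), adjusted by Benjamini-Hochberg over all genes, at a threshold of 0.05. The labels call the arrays biological replicates, and their number limits the precision. On data simulated for this comparison over 22180 genes, 3 of 75 changes of 0.5 log2 units, 34 of 60 of 1 unit and 59 of 65 of 2 units were recovered, with 6 false calls among 21980. Fewer genes changed in the simulation than were called here, and noise was drawn independently for each gene. These rates therefore need not hold for the arrays themselves.

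The members, lists and named genes were chosen with earlier results of these data known. Named were the 9 genes, Mmp14, genes at the edge of the choice, close relatives, neighbours, nearest patterns, cell type anchors and called list members. Krt5, also planned as an anchor, had no probe set with a single symbol and was not used. Of 234 family list entries 212 were measured. A group with every array under the receptor 95th percentile gives only a bound, computed against that percentile. Same-numbered arrays did not deviate together (correlations -0.03, -0.05 and -0.03), so no pairing was used. Alternatives were repeated quantile normalization, median centring, the mean of probe sets, an intensity trend, a filter on the dimmest 33 percent of genes, a replicate block, an at least 2-fold change, another background level and each array left out.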

Additional observations from a re-analysis of the deposited data

How the results depend on the processing

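The differences of the 9 genes cannot change with the mean of probe sets, the filter on dim genes, the intensity trend or the replicate block, and under the other alternatives they kept the direction for which the genes were chosen. Without 1 array they ranged from -5.60 to -4.81 for Dmbt1, -5.72 to -4.06 for Sprr1a, -4.82 to -4.59 for Cdcp3, -4.29 to -3.87 for Mfsd2a, -4.26 to -3.60 for Ido1, -3.93 to -3.55 for Cxcl15, -3.82 to -3.58 for Mtmr7, -3.59 to -3.38 for Pcp4 and -3.67 to -3.28 for Slc5a5. Measured from the 33rd percentile of all genes (2.68) instead of the receptor median, the knockout means lay 0.79 (Dmbt1), 0.52 (Sprr1a), 0.018 (Cdcp3), 2.13 (Mfsd2a), 0.62 (Ido1), 1.47 (Cxcl15), 1.30 (Mtmr7), 2.14 (Pcp4) and 1.90 (Slc5a5) log2 units above it. With the receptor median subtracted on the linear scale, 2.00% (Dmbt1) to 8.01% (Slc5a5) of the wild-type level was left. Of all genes 2717 passed (1596 fell, 1121 rose), and 1490 to 2304 without 1 array (969 to 1427 fell, 494 to 877 rose). Rises numbered 1768 with median centring, where the median difference was 0.12 in place of 0.03, and 689 with the replicate block. At least 2-fold changes were 870 (680 fell, 190 rose). In the family lists 19 to 29 fell and 3 to 11 rose without 1 array, 19 fell and 3 rose at least 2-fold, and 21 rose with median centring, 17 without the dimmest genes, 18 with a trend and 7 with the replicate block. The causes were not tested. Mmp14 passed under each alternative fitted, at -2.42 to -2.10 without 1 array.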

Other observations

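Probe sets outside the gene table held falls of the same size. Of 16010 probe sets without a symbol, 2 fell at least as much as Slc5a5, to 2.47 in the knockout against 6.94 in wild type and to 5.95 in the knockout against 9.78 in wild type, and their genes are unnamed here. Among probe sets with several symbols, 1 that reads genes of the SPRR2 family, relatives of Sprr1a, averaged 4.31 in the knockout and 7.27 in wild type (-2.96). It was picked out after its values had been seen and was not tested.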
